A study of Mus musculus with 2 samples.

Results

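The genes described here are 10 secretory genes of the exocrine pancreas that were read in colon RNA: Cela1, Cela2a, Cela3b, Ctrb1, Prss2, Clps, Pnliprp1, Pnliprp2, Gp2 and Cuzd1. They were taken as every probe set (a group of short oligonucleotides read together as 1 value) whose platform annotation gives 1 of these symbols and no other. This yielded 18 probe sets of 22626 that were not controls, and 10 genes of 12393. The genes were chosen because they were low in transgenic colon in these same arrays, so their differences between genotypes are given as a description, with no test. Gp2 and Cuzd1 encode zymogen granule proteins and Clps a lipase cofactor, so the group holds enzymes and proteins that are packed with them.

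The arrays hold RNA from a piece of distal colon of FVB mice that were wild type and of IL-9 transgenic mice, titled Tg5, which carry an added gene for this cytokine of type 2 immunity. The series text writes the wild-type strain as TVB where the sample labels write FVB. Each genotype was 1 pool of 4 mice on 1 array, both groups bred free of specific pathogens, and no treatment, age or sex is given in the sources used here. The promoter that drives the transgene is not given there either. With pooled RNA, a difference carried by 1 mouse of a pool and one shared by all 4 cannot be told apart, and with 1 pool per genotype the spread between mice is unknown.

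Acinar cells make up most of the exocrine pancreas and store digestive enzymes as inactive precursors in zymogen granules. Proteases such as trypsinogen, chymotrypsinogen and the proelastases are activated in the duodenum, while pancreatic triglyceride lipase needs colipase to work in the presence of bile salts. Many acinar genes are controlled by the PTF1 complex, in which Ptf1a and Rbpjl bind a paired element made of an E-box and a second box with the letters TGGGAA. Distal colon is not a known site of zymogen storage, although single products such as Zg16 are also made by goblet cells.

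Wherever a pair of intensities is given below, the wild-type pool comes first and the IL-9 transgenic pool second. The transgene was seen as labelled, with Il9 at 5.14 and 862. All 14 colon epithelial markers with a probe set were measured in both pools and stayed within 2-fold, with Hoxb13, a homeobox gene of the distal gut, at 1255 and 1237 and the anion exchanger gene Slc26a3 at 2296 and 1942. The largest log2 ratio among them was 0.68, for the mucus protein gene Fcgbp. Median intensities were 34.0 and 34.2. A floor was laid at 19.8, the 40th percentile of the pooled intensities, lower values were raised to it, and a ratio against it is written as at least N-fold.

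All 10 genes exceeded the floor in wild type and all 10 were lower by 2-fold or more in the transgenic pool, as were 0.611% of the 8346 measured genes. That share is given for scale only, since the genes were picked on this contrast. In wild type their intensities ran from 223 for Cuzd1 to 3554 for Cela1. In the transgenic pool 7 of the 10 lay below the floor, between 0.683 and 15.6, and 3 (Cela1, Clps and Pnliprp2) remained above it. Their median log2 ratio (transgenic over wild type) was -5.57, a value set by genes at the floor and therefore a bound, against 0.04 over all measured genes. All 18 probe sets were at least 2-fold lower, against 0.742% of the 13070 single-symbol probe sets above the floor on at least 1 array, and 13 of the 18 were below the floor in transgenic colon.

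**Figure D1:**
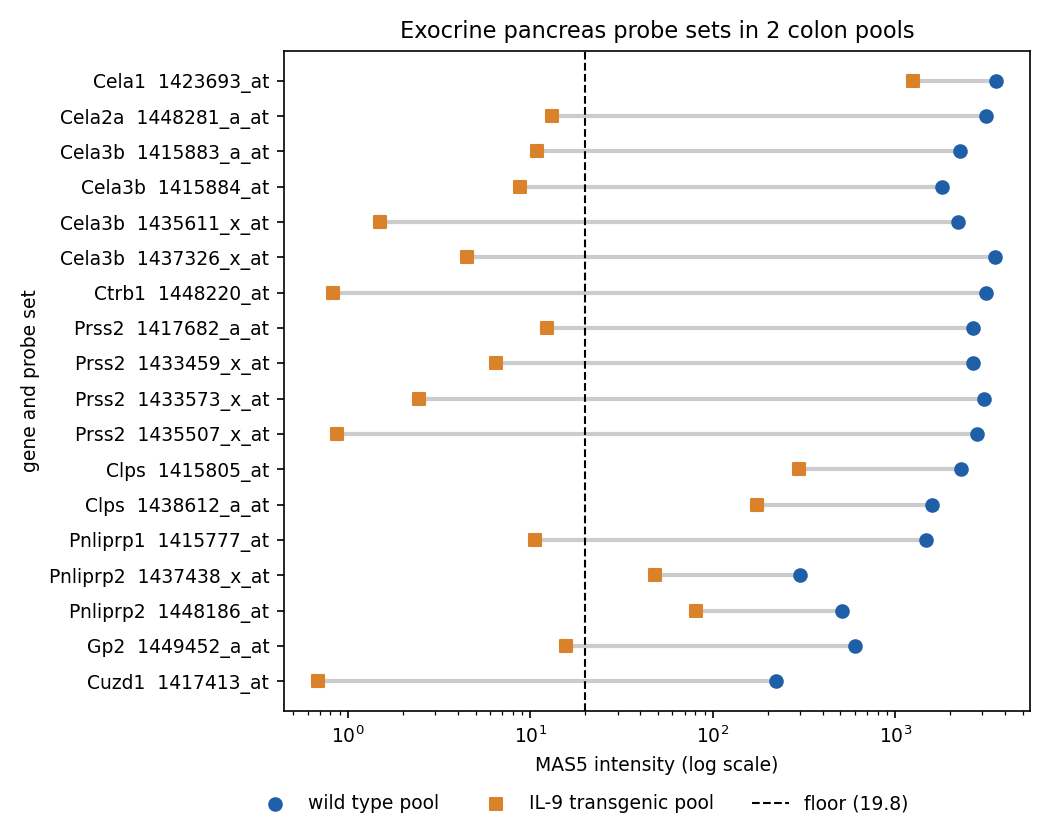
MAS5 intensity (log scale) of each of the 18 probe sets in the wild-type pool (circles) and the IL-9 transgenic pool (squares), with the floor of 19.8 as a dashed line. Each point is 1 pool of 4 mice, and the transgenic points of Cela1, Clps and Pnliprp2 are the only ones right of the floor.

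The 3 proelastase genes were all lower with the transgene, but by very unequal ratios. Cela1, an elastase-type serine protease, had intensities of 3554 and 1246, which is 2.85-fold lower. Cela2a had 3148 and 13.1, at least 159-fold lower, so that it was bright in one pool and below the floor in the other. Cela3b was read by 4 probe sets, at 3515, 2267, 2205 and 1793 in the wild-type pool and, in the same order, at 4.52, 10.8, 1.50 and 8.76 in the other. The first and the third of these carry the suffix x, which marks probes that can bind several transcripts, with bounds of at least 178-fold and at least 111-fold. The other two had bounds of at least 115-fold and at least 90.6-fold, so Cela3b was far lower by each probe set, and its log2 ratio was -7.47 by the brightest and -6.84 when those with the suffix were left out. A further probe set is annotated to both Cela3a and Cela3b and cannot be given to either, and it had 4184 and 1.55, at least 211-fold lower. The highest intensity on the wild-type array was 4760, and differences can be compressed near the top of the scale. Cela1 was thus still bright in the transgenic pool, whereas no probe set of Cela2a or Cela3b exceeded the floor there.

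The 250 bases before the RefSeq start of the 3 proelastase genes, from the reference strain C57BL/6J and not FVB, are shown because these genes differed so unequally. Capitals mark CACCTG and CAGCTG, both E-boxes, and TGGGAA, each searched on both strands.
Cela1 (GRCm38.p6 chr15:100687921-100688170, minus strand): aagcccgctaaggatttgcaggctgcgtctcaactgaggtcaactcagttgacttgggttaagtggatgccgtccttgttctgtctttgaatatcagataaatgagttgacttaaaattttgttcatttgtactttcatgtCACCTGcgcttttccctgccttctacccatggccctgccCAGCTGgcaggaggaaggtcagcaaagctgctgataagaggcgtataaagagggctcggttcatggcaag
Cela2a (GRCm38.p6 chr4:141826006-141826255, minus strand): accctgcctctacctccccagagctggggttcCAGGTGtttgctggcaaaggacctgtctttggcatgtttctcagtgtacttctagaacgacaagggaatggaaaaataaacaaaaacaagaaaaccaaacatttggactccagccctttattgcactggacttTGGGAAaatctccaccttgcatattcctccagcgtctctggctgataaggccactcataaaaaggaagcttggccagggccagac
Cela3b (GRCm38.p6 chr4:137430521-137430770, minus strand): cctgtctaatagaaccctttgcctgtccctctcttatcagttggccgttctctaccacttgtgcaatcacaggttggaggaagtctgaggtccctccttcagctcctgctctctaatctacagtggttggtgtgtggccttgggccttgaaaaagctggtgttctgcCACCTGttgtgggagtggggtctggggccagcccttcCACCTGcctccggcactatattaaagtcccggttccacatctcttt
Cela1 held 1 E-box of each kind, from -109 to -104 and from -70 to -65 relative to the start, and no TGGGAA match. Cela2a held 1 CACCTG match on the reverse strand at -218 and 1 TGGGAA match at -85. Cela3b held 2 CACCTG matches, at -83 and -46. A match of letters is a description of the sequence and not a binding site.

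The other protease genes of the group, Ctrb1 and Prss2, were below the floor in transgenic colon by every probe set. Ctrb1, a chymotrypsinogen gene, had intensities of 3127 and 0.829, at least 158-fold lower. Prss2, an anionic trypsinogen gene, was read by 4 probe sets with intensities of 2667 to 3065 in one pool and 0.866 to 12.3 in the other. Their bounds lay between at least 135-fold and at least 155-fold. Of these 4, 3 carry the suffix x, trypsinogen genes being close copies of each other, and the remaining probe set had 2678 and 12.3. Signal from near-identical trypsinogens can therefore be counted under Prss2. A probe set shared by Try4 and Try5 had 1840 and 2.43, at least 93.0-fold lower.

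Lipid-digesting genes split into 1 below the floor in the transgenic pool and 2 above it. Pnliprp1, which encodes a pancreatic lipase-related protein with little known lipase activity, had intensities of 1471 and 10.6, at least 74.3-fold lower. Pnliprp2, a lipase that also acts on galactolipids, had 513 and 80.6 by its brighter probe set, 6.37-fold lower, and 300 and 48.1 by the other, 6.22-fold lower. Clps, colipase, had 2278 and 296 by its brighter probe set, 7.69-fold lower, and 1584 and 175 by the other, 9.08-fold lower. Both probe sets of Clps and both of Pnliprp2 were thus above the floor in each pool. The paired probe sets differed in log2 ratio by 0.24 for Clps and 0.03 for Pnliprp2. For scale, the pooled SD of log2 ratios between probe sets of 1 gene was 0.28 over 2847 genes. That SD describes single probe sets and not a difference between 2 of them, and it does not measure spread between mice.

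Pnliprp1 and Pnliprp2 lie next to each other in the RefSeq gene order on chromosome 19 and are shown for their unequal ratios.
Pnliprp1 (GRCm38.p6 chr19:58728637-58728886, plus strand): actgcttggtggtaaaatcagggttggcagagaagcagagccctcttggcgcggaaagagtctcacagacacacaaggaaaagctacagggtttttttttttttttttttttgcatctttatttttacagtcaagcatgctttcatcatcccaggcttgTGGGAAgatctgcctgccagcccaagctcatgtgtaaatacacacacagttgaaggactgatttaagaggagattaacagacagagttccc
Pnliprp2 (GRCm38.p6 chr19:58759473-58759722, plus strand): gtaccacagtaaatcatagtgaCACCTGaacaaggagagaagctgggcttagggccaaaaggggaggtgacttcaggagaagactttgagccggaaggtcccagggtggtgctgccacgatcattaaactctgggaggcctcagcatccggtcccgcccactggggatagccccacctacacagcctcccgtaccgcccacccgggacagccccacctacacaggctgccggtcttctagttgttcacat
Pnliprp1 held 1 TGGGAA match at -91 and no E-box of either kind, and Pnliprp2 held 1 CACCTG match at -228 and no TGGGAA match. Of the 9 promoters found for the 10 genes, 5 held CACCTG (17.2% of all 32851 promoters in the table did), 3 held CAGCTG (13.0%) and 5 held TGGGAA (21.6%). An E-box of either kind was present in 7 of 9, against 27.7% of all promoters, and an E-box together with TGGGAA in 3 of 9 (Cela2a, Ctrb1 and Prss2), against 6.31%. That count set no limit on the distance between the motifs, so it is not a count of paired PTF1 elements. The E-box and TGGGAA matches began at -218 and -85 in Cela2a, at -205 and -194 in Ctrb1, and at -169 and -111 in Prss2. No matches overlapped each other in these 9 windows. An E-box without TGGGAA was found in Cela1 and Pnliprp2, which were above the floor in both pools, and equally in Cela3b and Cuzd1, which were below it in transgenic colon.

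**Figure D2:**
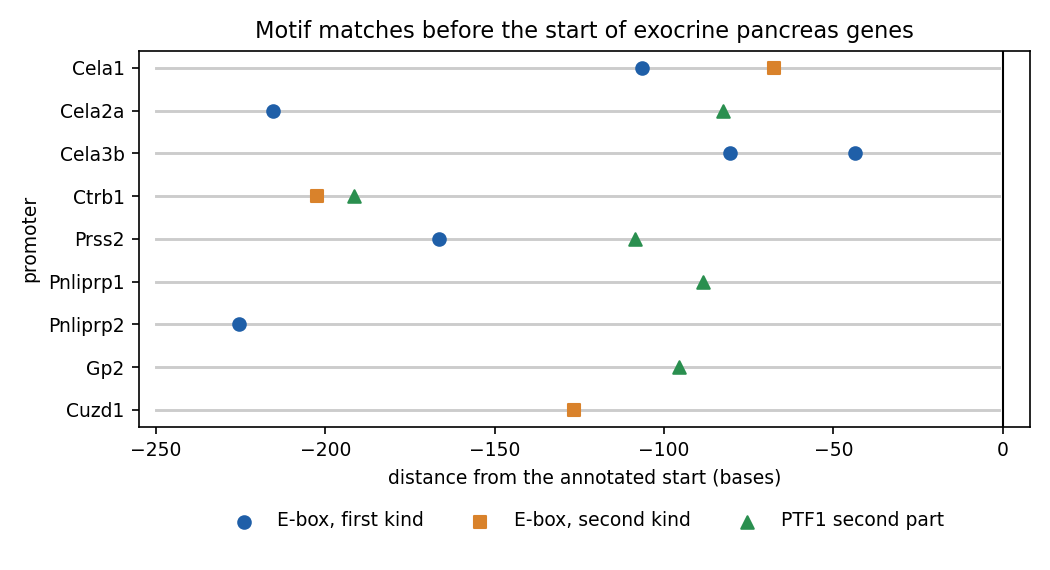
Position of motif matches in the 250 bases before the RefSeq start of the 9 genes with a promoter in the table (x axis, bases from the start; 1 row per gene). Circles are CACCTG, squares CAGCTG and triangles TGGGAA, on either strand; the TGGGAA matches of Cela2a, Gp2, Pnliprp1 and Prss2 lie between -111 and -80, and that of Ctrb1 at -194.

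Both granule protein genes were above the floor in the wild-type pool only. Gp2, the major glycoprotein of the zymogen granule membrane and also a surface protein of M cells in the gut, had intensities of 599 and 15.6, at least 30.3-fold lower. Cuzd1, a protein of the zymogen granule membrane, had 223 and 0.683, at least 11.3-fold lower. These sizes reflect how far wild type stood above the floor and do not order the genes by how much they differed.

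Of the 10 genes, 3 had a ratio measured in both pools and 7 had a bound, and whether ratios differ between genes was not tested. The 3 genes above the floor in both pools were 2.85-fold to 7.69-fold lower by their brightest probe sets. The second probe set of Clps was 9.08-fold lower. Each bound of the other 7 genes was at least 11.3-fold by the brightest probe set. With the floor at the 60th percentile this separation held for 6 of the 7, the bound of Cuzd1 then being at least 4.04-fold. The spread between mice that would be needed to test these differences was not measured.

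The brightest probe sets of the 10 genes held 0.671% of all intensity in the first pool and 0.0524% in the second. Of the sum of the 10 genes in the second pool, Cela1 gave 74.6%, and Cela1, Clps and Pnliprp2 together gave 97.1%. In bulk RNA, fewer cells of a type and less RNA per cell cannot be told apart, and here pancreatic tissue in the wild-type piece and a difference by genotype cannot be told apart either.

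Most other acinar enzyme genes were lower as well. In the 4 further acinar lists 22 of 41 genes had a single-symbol probe set and 17 were measured. Their median log2 ratio was -2.09, the value of Serpini2, a gene below the floor in the transgenic pool. That median is therefore a bound. Of the 17, 10 were lower by 2-fold or more and 0 higher, against 0.611% and 0.767% of all measured genes. Of 6 measured proteases 5 were lower by that measure, among them the procarboxypeptidases Cpb1 (2784 and 9.42) and Cpa1 (2761 and 6.04), the trypsinogen-like 2210010C04Rik (3140 and 2.15) and the chymotrypsin-like Ctrl (2297 and 8.75). The bounds of these 4, by their brightest probe sets, ran from at least 116-fold to at least 159-fold. The least bright probe set of 2210010C04Rik had 203 and 6.37, at least 10.2-fold lower. Of 4 measured enzymes for lipid, starch and nucleic acid 3 were lower: Cel, the bile salt-activated lipase, at least 115-fold, the ribonuclease gene Rnase1 at least 86.9-fold and the phospholipase gene Pla2g1b at least 10.6-fold. Pla2g1b had 2 further probe sets below the floor in both pools. The fourth, Amy1, a non-pancreatic amylase, had 32.5 and 11.9, at least 1.64-fold lower. Its wild-type value was too near the floor for it to be counted as 2-fold lower. A probe set shared by 5 Amy2a genes, the pancreatic amylases, had 4440 and 4.93, at least 224-fold lower.

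Granule proteins and protease inhibitors outside the 10 genes did not follow as a group. Of the 5 measured, 2 passed 2-fold: the serpin gene Serpini2 (84.3 and 1.22, at least 4.26-fold lower) and the vesicle trafficking gene Tmed6 (51.7 and 9.36, at least 2.61-fold lower). The other 3 were bright and nearly equal in both pools. Sycn, syncollin of the zymogen granule, had 3244 and 3107, and its second probe set 3027 and 3059. Zg16, a lectin of zymogen granules and of goblet cells, had 4353 and 4330, close to the top of the scale. Spink1, a trypsin inhibitor, had 2119 and 2406. Among the proteases the kallikrein gene Klk1 likewise had 2772 and 2835, although the least bright of its 3 probe sets had a log2 ratio of -0.61. Each of these 4 genes thus had like intensities in the 2 pools, while 7 of the 10 genes described here were below the floor in the transgenic one. Which cells gave the signal of these 4 genes was not tested, so their level cannot be read as a measure of acinar RNA.

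**Figure D3:**
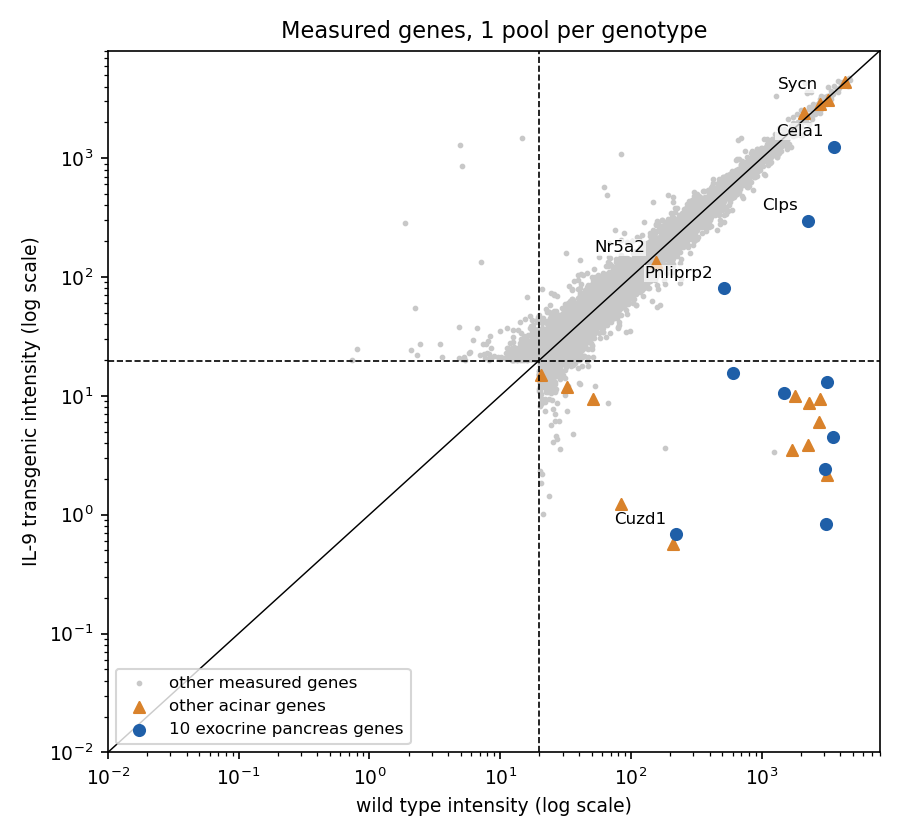
Intensity in the wild-type pool (x axis) against the IL-9 transgenic pool (y axis), both on log scales, for the 8346 measured genes, with the floor of 19.8 as dashed lines and equality as a solid line. The 10 exocrine pancreas genes (circles) lie under the line, with Cela1, Clps and Pnliprp2 above the floor in both pools, and other acinar genes (triangles) lie partly with them and partly, as Sycn, on the line.

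Regulators of acinar cells were mostly below the floor. Ptf1a had intensities of 10.4 and 4.71 and Rbpjl 3.94 and 2.40, all below the floor, so these factors were not measurable in either pool. Whether their probe sets would detect low levels of them in colon RNA was not tested. Gata4 and Cckar, the cholecystokinin receptor that triggers enzyme release, were below the floor as well. Bhlha15, a factor of secretory cells, had 20.4 and 14.9, just above the floor in the wild-type pool and below it in the other. Nr5a2, a nuclear receptor made by acinar and crypt cells, had 155 and 133, a log2 ratio of -0.22. Of the 6 factors and receptors with a probe set, 2 were measured and 0 reached 2-fold. Bhlha15 stood too near the floor in wild type to be counted as 2-fold lower, so the count rests on Nr5a2.

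The 10 genes outside the group with the lowest log2 ratios over the pair of pools were 2210010C04Rik, Cpb1, Cpa1, Ctrl, Cel, Ctrc, Rnase1, Reg1, Pla2g1b and Tff2. Of these, 8 belong to the acinar lists, Ctrc, chymotrypsin C, being at least 91.6-fold lower. Reg1, a regenerating protein made by acinar cells, had 1250 and 3.37, at least 63.1-fold lower, and Reg2 had 66.3 and 8.68, at least 3.35-fold lower, while Reg4 had 2397 and 3619. Tff2, a trefoil peptide gene best known from the stomach, had 182 and 3.65, at least 9.22-fold lower. Of 17 genes at least 8-fold lower, 7 were among the 10 genes and 8 in the other acinar lists, and the other two were Reg1 and Tff2. Outside all these lists the lowest ratio was that of Acaa1a, a peroxisomal thiolase, at 2.86-fold lower, although its other probe set had a log2 ratio of 0.07.

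Markers of other tissues that could lie beside a colon piece were set next to these values. No islet gene reached 2-fold: of 8 with a probe set, 5 did not exceed the floor in either pool, with the insulin gene Ins2 at 11.4 and 5.34 and the amylin gene Iapp at 5.06 and 4.99. The 3 that were measured, Ppy, Gcg and Sst, are hormone genes that gut endocrine cells can also make, and they stayed within 2-fold, with log2 ratios of -0.37, -0.34 and 0.05. Their summed intensity, with the other islet genes, was 330 and 274. Of 8 duct genes 6 were measured and 0 reached 2-fold, among them Cftr at 277 and 248 and Krt19 at 3135 and 3322, both of which colon epithelium also makes.

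Adipocyte genes, listed with mesenteric fat in mind, summed to 1318 and 1067, and how much of this came from fat was not tested. Among 9 with a probe set 3 (Lep, Cidec and Adig) exceeded the floor in neither pool. The 6 measured members stayed within 2-fold, with Car3 at 536 and 368 and Adipoq at 87.7 and 87.9. Of 13 stomach genes 10 exceeded the floor in neither pool, including the acid pump gene Atp4a at 5.76 and 0.410 and the pepsinogen gene Pgc at 6.79 and 0.957, and Tff2 was the 1 member past 2-fold. Of 8 liver genes 6 likewise did not, albumin (Alb) being at 16.4 and 17.0, and the largest log2 ratio in size was -0.50, for Ttr. Of 7 salivary genes 6, all but Amy1, exceeded the floor in neither pool. Of 10 small intestinal genes 6 were measured and 1 passed 2-fold, the peptide transporter gene Slc15a1 (158 and 56.0, 2.81-fold lower), while the fatty acid-binding protein gene Fabp2 had 98.8 and 131.

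Among 10 spleen and lymph node genes 4 exceeded the floor in neither pool, including Tlx1 at 5.04 and 6.29 and Ccr7 at 2.06 and 4.78. The list summed to 182 and 387. Its measured genes went the other way, 3 of 6 being higher by 2-fold or more with the transgene (as were 0.767% of all measured genes). These were Cd79a, a chain of the B cell receptor, at 20.7 and 78.5, Cd22 at 25.8 and 70.2, and Ms4a1 at 35.2 and 77.6. Whether these B cell genes were read from the colon wall or from tissue beside it was not tested. Smooth muscle genes stayed within 2-fold in all 7, with Myh11 at 1341 and 1265 and the largest log2 ratio in size, -0.27, for Mylk, and 5 of 7 skeletal muscle genes exceeded the floor in neither pool. The part of any of these tissues in the difference of the pancreatic genes was not tested.

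**Figure D4:**
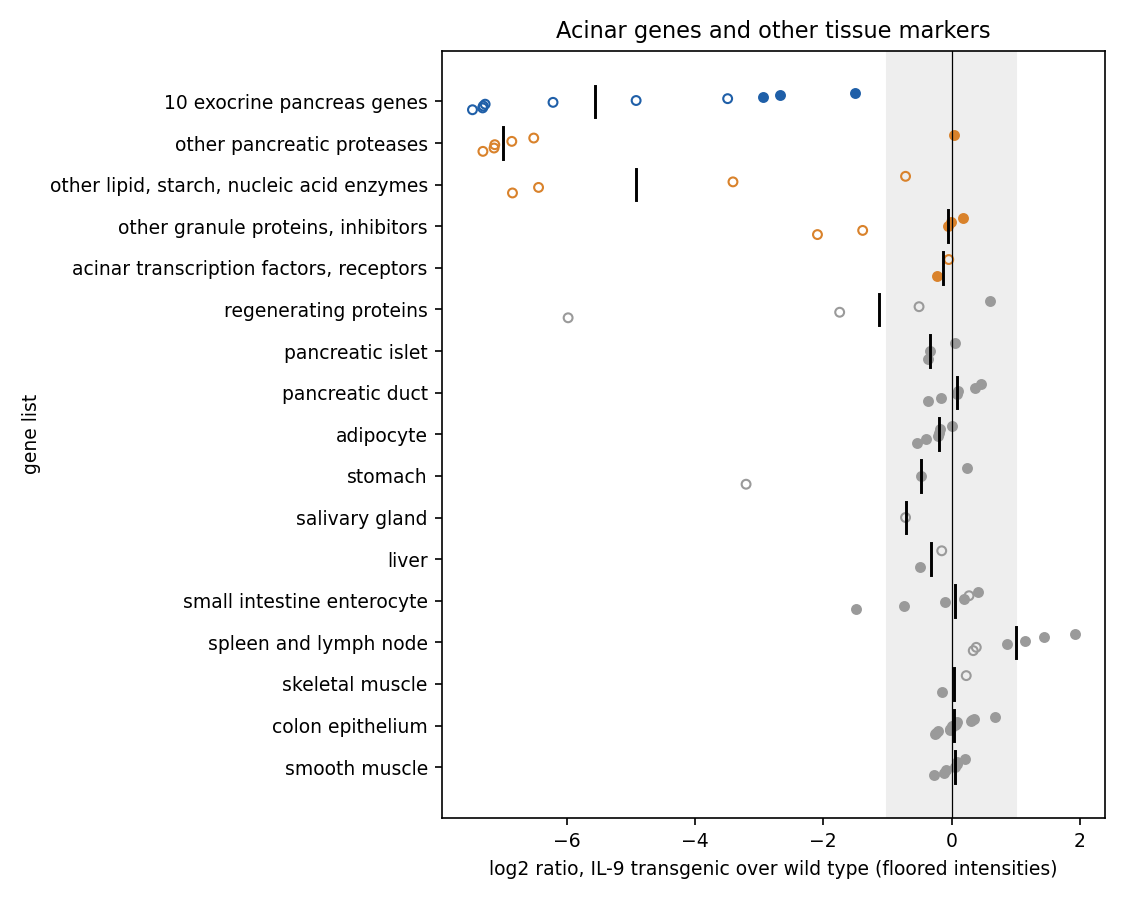
Log2 ratio of IL-9 transgenic over wild type (x axis, floored intensities) for each measured gene of each list (rows), filled where the gene exceeded the floor in both pools and open where the ratio is a bound. Vertical ticks are list medians and grey shading marks less than 2-fold; the 10 exocrine pancreas genes have a median of -5.57, colon epithelium 0.04 and smooth muscle 0.06.

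The 10 genes lie on 7 chromosomes, and their neighbours gave few values. Of 15 protein-coding genes that directly flank them in the RefSeq order and belong to no acinar list, 4 were measured and 0 reached 2-fold. These were Casp9 and Efhd2 beside Cela2a, Galnt6 beside Cela1 and Bcar1 beside Ctrb1, with log2 ratios from -0.50 to 0.28. No gene measured directly beside Cela1, Cela2a or Ctrb1 was thus past the threshold.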

How the data were processed

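RNA of 4 mice per genotype was pooled and hybridised as biotinylated cRNA to 1 Affymetrix array per pool, per the labels' protocols and the series text. The deposited values are linear intensities from MAS5, per the submitters' processing notes (no version is stated there). Both arrays had a mean of 99.99 once the outer 2% of values at each end were removed. MAS5 subtracts background and mismatch signal, so low values are unstable.

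Genes were named from the 20380 probe sets with a single symbol, the brightest on average standing for its gene. Log2 ratios were taken above a floor of 19.8, with a threshold of 2-fold and no test, as each group is 1 array. RefSeq names, gene order and promoters are those of GRCm38.p6. The build behind the probe annotation was not stated.

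The genes, lists and alternatives were chosen with earlier results of these data known. The naming rule took all 10 genes, up to 4 genes of each other list with the largest ratios, and the 10 further genes with the lowest ratio. Not all list genes that it takes are named, and others, such as Hoxb13, Slc26a3, Myh11 and Alb, fall outside it and were chosen after their values were seen. The calculation was tested on simulated arrays. Alternatives were 2 scalings, floors at the 20th and 60th percentiles, a pseudocount of 0.735 without a floor, and 3 other choices of probe set. Python 3.11.15, numpy 2.4.6 and pandas 2.3.3 were used.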

Additional observations from a re-analysis of the deposited data

How the results depend on the processing

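The 10 genes were at least 2-fold lower under all 8 alternatives, and of 80 recomputed log2 ratios 0 turned positive and 0 rose above the 2-fold threshold, with a range from -10.97 to -1.51. Sizes followed the floor, since 7 of the genes are bounds: the median log2 ratio was -6.22 with the floor at the 20th percentile, -4.09 at the 60th and -7.16 without a floor. The count of all genes at least 2-fold lower moved from 51 to 258, 27 and 800 in the same order, as low intensities enter or leave. That of the other acinar genes moved from 10 of 17 measured to 12 of 20, 8 of 14 and 13 of 22. The scalings and the choice of probe set left the number of lower acinar genes and the shares of summed intensity close to their values. Signal over background limits every transgenic value below 19.8, for which only a bound can be given.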
